A study of Arabidopsis thaliana with 3 samples.

Results

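The compact loci described here are the 1443 rows on chromosomes 1 to 5 of Arabidopsis thaliana whose interval occurs in 1 row only and spans 200 to 450 bp, out of 33857 rows in all. Their median width was 353 bp. They made up 5.16% of the 27946 single-row loci on these chromosomes, and no compact interval overlapped that of another row. They are set beside 14599 single-row loci of 1000 to 3000 bp, with a median width of 1877 bp. RNA was sequenced with strand information from 3 organs of wild-type plants of the Col-0 accession: leaf, inflorescence (the flowering tip with buds and flowers) and silique (the fruit, with the seeds inside it). All 3 organs came from plants shot at 3 weeks with uncoated gold particles of 0.6 µm and no plasmid, grown on for 18 days and harvested at 5.5 weeks, under 16 hours of light. Each organ gave 1 library. Differences between organs therefore rest on single libraries, without error or test. Values are FPKM, a fragment count scaled to length and library size, and the fragments behind each value are not known. Because an exact 0 may be a failed estimate, it is written as listed at 0.

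A gene of this size has room for a short protein only. Plant genomes hold many such genes, and a large share of their products are secreted peptides with a signal sequence and several cysteines that form disulphide bridges. Defensins act against microbes, while related cysteine-rich peptides pass signals between pollen and pistil, between egg and sperm, and between embryo and endosperm. Other short genes encode peptide hormones of the RALF and CLE families, arabinogalactan peptides of the cell surface, small membrane subunits of organelles, and precursors of microRNAs. The label of these loci as peptide-sized was checked against the reference gene table. Of the 1443 loci, 1157 (80.2%) could be named by position, and 671 of these held a protein-coding gene. Another 402 held pseudogenes and 84 held RNA genes, so fewer than the whole set are peptide genes. For 371 of the 1157 named loci (32.1%) the gene was longer than the locus, so locus width is not always gene size. Of the 671 protein-coding loci, 570 carry a locus code and no symbol, and for these no role is given, apart from those matched through a synonym. Of the rest of the 1443, 126 had no reference gene and 160 overlapped genes only in part or overlapped several. Sequences were not used here.

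The libraries carried the marks of their organs. Each of 4 leaf genes, among them the Rubisco gene RBCS1A, was highest in leaf, at 1872 to 21490 FPKM. The floral organ identity genes PI, AP3 and SEP2 were at 91.9 to 141 FPKM in inflorescence, 0.310 to 0.974 in leaf and 3.94 to 142 in silique. SEP2 was as high in silique, at 142 FPKM, as in inflorescence, at 141, and AP3 was at 63.3 in silique. Only PI, at 141 FPKM against 3.94, was far higher in inflorescence than in silique. Each of 4 pollen genes was highest in inflorescence, at 250.5 to 599.5 FPKM, as was each of 4 genes of the tapetum, the anther layer that feeds pollen, at 157 to 715 FPKM. Each of 4 seed storage and oil body genes was highest in silique, at 855 to 22800 FPKM, against 1.89 to 70.0 FPKM in leaf and 0.712 to 26.7 FPKM in inflorescence. Of 6 root genes, 2 were matched: RHD6, of root hairs, at 0 to 0.21 FPKM in the 3 libraries, and PHO1, a phosphate exporter gene, at 3.86 to 14.6 FPKM. The leaf library was the most concentrated, with 37.6% of its summed FPKM in the 100 highest rows, against 26.1% in inflorescence and 27.7% in silique. Leaf listed 31.6% of all rows at 0, inflorescence 22.5% and silique 25.2%. In bulk organs, fewer cells of a type and less RNA per cell cannot be told apart.

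Most compact loci were listed at 0 or lay under the detection floor in every organ. At a detection floor of 1 FPKM, 608 of 1443 (42.1%) were detected in at least 1 organ, against 71.0% of the loci of 1000 to 3000 bp. A value of 0 in all 3 libraries was listed for 646 compact loci (44.8%), against 13.7% of the wider ones. Leaf had the fewest: 189 compact loci (13.1%) were detected there, against 57.3% of loci of 1000 to 3000 bp and 54.5% of all rows. In inflorescence 434 (30.1%) were detected, against 64.7% of the wider class and 61.8% of all rows. In silique 415 (28.8%) were detected, against 64.3% and 61.1%. The gap between leaf and the reproductive organs was therefore wider, as a ratio, among compact loci than among loci of 1000 to 3000 bp.

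A locus of 353 bp yields fewer fragments than one of 1877 bp at the same FPKM, so 1 FPKM is not an equal floor for the 2 classes. A floor of 1 on FPKM times kilobases of locus width gave 8.25% of compact loci in leaf, 19.1% in inflorescence and 21.1% in silique, against 60.1%, 67.9% and 67.4% of the wider loci. The difference between the classes was thus larger by this floor, and silique stood above inflorescence. The length by which the FPKM was divided is not given in the sources used here. If it was an effective length shorter than the locus, FPKM times width is not proportional to fragments at narrow loci. The same holds at wider loci if the length left out introns inside the interval. Silique was also the higher of the 2 at a floor of 5 FPKM, at 16.8% against 14.2%, so the near tie of both organs at 1 FPKM is not a stable order. The part of library depth in the low leaf share was not tested.

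**Figure D1:**
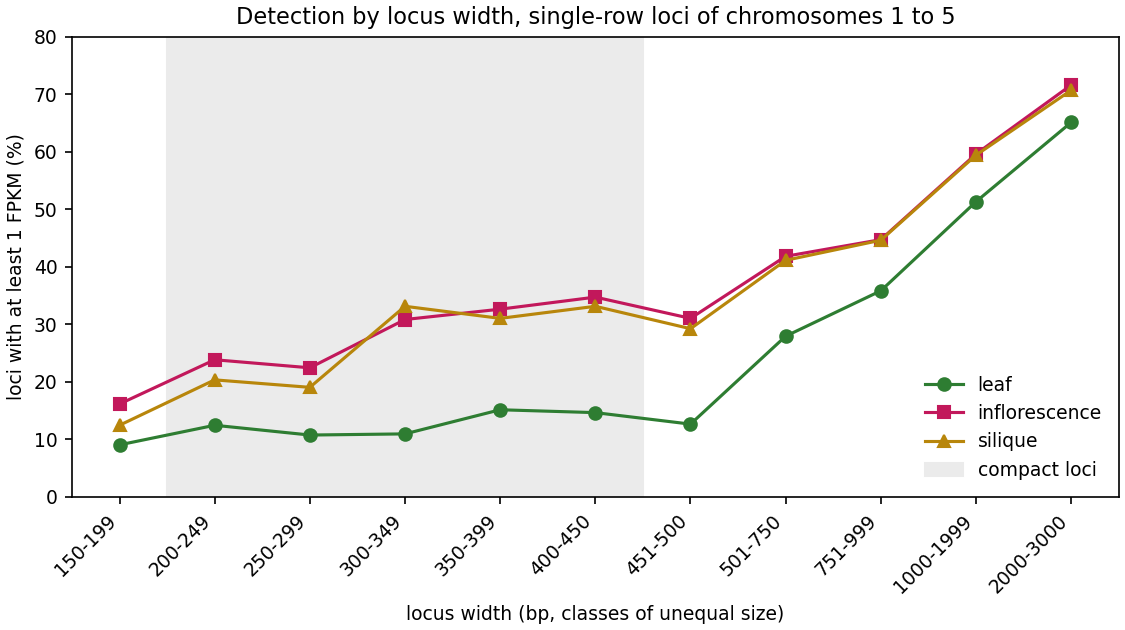
Share of single-row loci with at least 1 FPKM (vertical axis, percent) in classes of locus width (horizontal axis, bp), with 1 line per organ and the compact range shaded. Inside the shaded range the leaf line stays between 10.7% and 15.1%, and the inflorescence and silique lines lie above it in each class.

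Within the compact range the organs did not follow width in the same way. In silique, 20.3% of the narrowest class shown, which starts at 200 bp, were detected, and 33.1% of the widest, which ends at 450 bp. In inflorescence the shares were 23.8% and 34.7%, and in leaf 12.4% and 14.6%. Just outside the range, at 451 to 500 bp, 12.6%, 31.0% and 29.2% of loci were detected in leaf, inflorescence and silique, close to the compact values. Silique-enriched loci were 10 of 202 in the narrowest class and 44 of 357 in the widest. At the limits of the range, the 1 locus of 200 bp and the 1 locus of 199 bp were undetected. Of 9 loci of 450 bp, 4 were detected and none was organ-enriched, and of 5 loci of 451 bp, 4 were detected and 1 was organ-enriched.

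Detection in all 3 organs was uncommon among compact loci. Of all 1443 compact loci, 114 (7.9%) reached the floor in every organ, against 54.0% of the loci of 1000 to 3000 bp. Inflorescence and silique without leaf was the most frequent pattern among detected compact loci, with 163 loci (11.3%, against 5.6% of the wider class). Inflorescence alone held 143 (9.91%, against 4.3%), silique alone 113 (7.83%, against 3.82%) and leaf alone 36 (2.49%, against 1.51%). Each single-organ pattern was therefore more frequent in the compact class than in the wider one, leaf included. The highest value lay in leaf for 101 of the 608 loci (16.6%), in inflorescence for 258 (42.4%) and in silique for 249 (41.0%). Among the 10361 detected loci of 1000 to 3000 bp these shares were nearly even, at 33.5%, 32.4% and 34.1%. These shares are over loci kept through the organ in which they were detected, and are a description only.

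Strong preference for 1 organ fell mainly on silique. A locus was counted as organ-enriched when it had at least 5 FPKM in an organ and, after 1 was added to every value, stood at least 4-fold above both other organs. By this rule 124 compact loci were silique-enriched (8.59%), against 2.84% of loci of 1000 to 3000 bp and 3.03% of all rows. Inflorescence-enriched loci numbered 52 (3.60%), against 2.71% and 2.53%. Leaf-enriched loci numbered 17 (1.18%), against 2.16% and 2.18%. The silique share was thus about 3 times that of either background, while the other 2 shares lay closer to them. It was not particular to the compact range, since single-row loci of 451 to 500 bp had 8.06% silique-enriched, those of 501 to 750 bp 6.15%, those of 751 to 999 bp 5.42% and those of 150 to 199 bp 4.49%. Within the range the share ran between 4.95% in the narrowest class and 12.3% in the widest. Compact loci took 2.68% of the summed FPKM in silique, 1.57% in inflorescence and 0.827% in leaf, and the 10 highest of them held 53.0%, 63.8% and 80.9% of those sums. In each of the 9 alternatives to this rule the silique share of compact loci stayed above that of the wider class, and silique-enriched loci outnumbered inflorescence-enriched and leaf-enriched ones.

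The same counts were made for gene-bearing loci and by level. Among protein-coding loci alone, 93 of 671 compact ones (13.9%) were silique-enriched, against 3.23% of 12467 protein-coding loci of 1000 to 3000 bp. Inflorescence-enriched ones were 29 (4.32%, against 3.11%) and leaf-enriched ones 5 (0.745%, against 2.45%). Of the 60 compact loci that reached 100 FPKM in some organ, 36 were silique-enriched, and of the 1503 such loci of 1000 to 3000 bp, 78 were. Between 5 and 20 FPKM, 33 of 162 compact loci were silique-enriched, and 191 of 3153 loci of 1000 to 3000 bp. These denominators keep a locus through the organ in which it was high, so they are given as a description only.

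**Figure D2:**
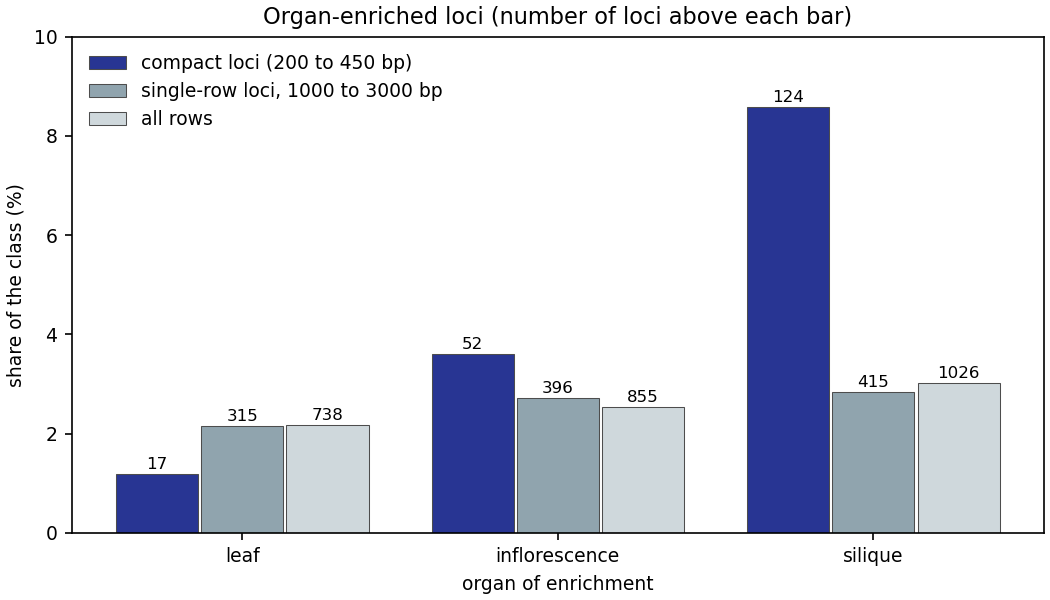
Share of each class of loci (vertical axis, percent) that was enriched in leaf, inflorescence or silique, with bars for compact loci, single-row loci of 1000 to 3000 bp and all rows, and the number of loci above each bar. The compact bar for silique, 124 loci or 8.59%, stands above both other silique bars, and the compact bar for leaf, 17 loci, stands below both other leaf bars.

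The 124 silique-enriched loci were at 5.22 to 4782 FPKM in silique, with a median of 44.3 FPKM, and 36 of them reached 100 FPKM. Leaf was listed at 0 for 93 of them and inflorescence for 32. In 83 of the 124, inflorescence was above leaf, and in 13 leaf was above inflorescence. The highest of them was AT5G38160 (chromosome 5, 15225767 to 15226208), at 4782 FPKM in silique, against 4.64 in leaf and 2.74 in inflorescence. Its neighbour AT5G38170 (15227638 to 15228081) was at 2892 FPKM in silique, against 3.85 in leaf and 1.45 in inflorescence. The next compact locus, AT5G38180 (15229810 to 15230243), was at 303 FPKM, against 0.726 in leaf and 0.480 in inflorescence. All 3 loci were therefore high in silique and near the floor elsewhere, in descending order of level along the chromosome.

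The other silique-enriched genes with the largest ratios carry only locus codes. AT1G13607 (chromosome 1, 4660778 to 4661218) was at 311 FPKM in silique, against 0.366 in leaf and 0.242 in inflorescence. AT2G02498 (chromosome 2, 669760 to 670204) was at 268 FPKM, against 0.231 in leaf and 0.864 in inflorescence. AT1G53282 (chromosome 1, 19867930 to 19868335) was at 150 FPKM and listed at 0 in leaf, with 0.21 in inflorescence. AT5G14995 (chromosome 5, 4853413 to 4853718) was at 146 FPKM and listed at 0 in both other organs. So was AT5G37473 (chromosome 5, 14870836 to 14871153), at 132 FPKM. Among the highest values in silique were also AT5G19175 (chromosome 5, 6449803 to 6450245), at 620 FPKM, against 1.05 in leaf and 9.77 in inflorescence, and AT3G11120 (chromosome 3, 3481052 to 3481448), at 562 FPKM, with 175 in leaf and 471 in inflorescence. AT3G11120 was thus abundant in all 3 organs and not silique-enriched.

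A pair of silique-enriched loci with names tied to seed development was chosen after their values were seen. AT1G10717 (chromosome 1, 3562180 to 3562554) carries a locus code, with the synonym ESF1.3 in the reference table, of the EMBRYO SURROUNDING FACTOR peptides, which are made around the young embryo. It was at 48.4 FPKM in silique, against 0.888 in inflorescence, and was listed at 0 in leaf. SMP1, a seed maturation protein gene, was at 27.2 FPKM in silique, against 0.690 in leaf and 0.596 in inflorescence. The seed storage markers given above moved in the same direction, and the part that seed tissue takes in the silique counts was not tested.

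**Figure D3:**
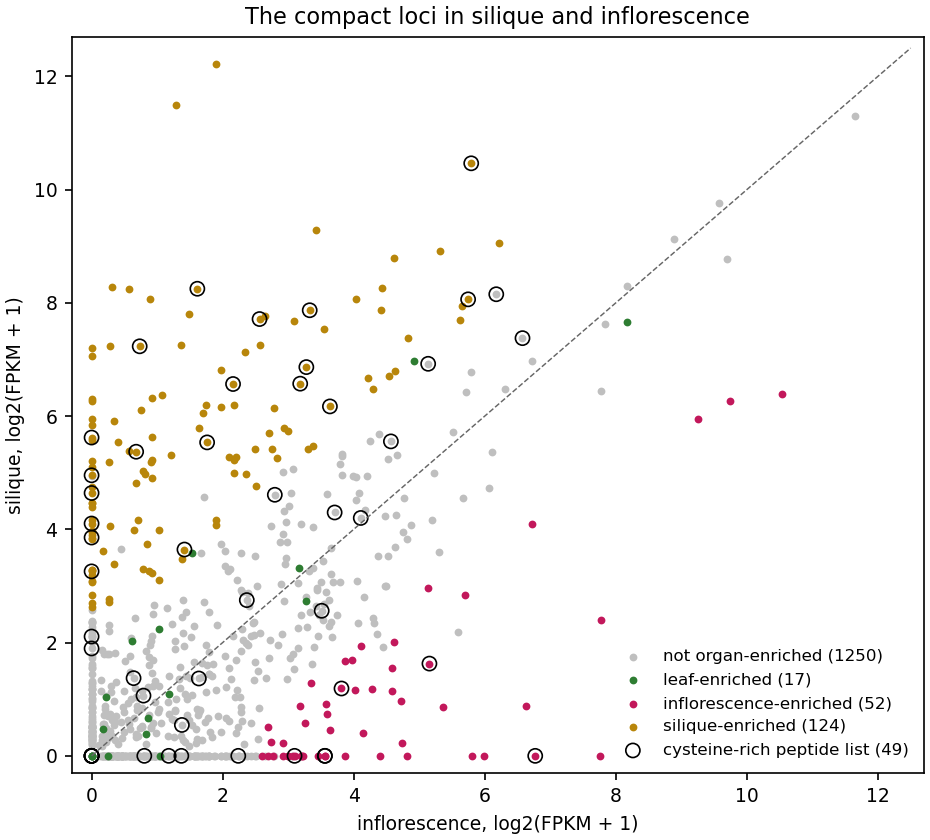
Each of the 1443 compact loci by its level in inflorescence (horizontal axis) and silique (vertical axis), both as log2(FPKM + 1), coloured by the organ of enrichment, with circles round the 49 members of the cysteine-rich peptide list. The 124 silique-enriched loci form a wide group above the diagonal, in which inflorescence is often at or near 0, and the 52 inflorescence-enriched loci form a smaller group below it.

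Of 21 gene lists matched by symbol or synonym, 10 had at least 1 compact member. Apart from the lists of RNA genes and pseudogenes, the largest was that of defensin-like and other cysteine-rich peptides, with 49 members. Of these, SCRL28 and LCR71 are annotated as transcribed pseudogenes, and SCRL28 is among the inflorescence-enriched members counted below. Of these, 19 were silique-enriched, 6 inflorescence-enriched and 1 leaf-enriched, a total of 53.1% of the list, against 13.4% of all compact loci. Detection reached 71.4% of the list in silique, against 35.8% of all compact protein-coding loci, and 63.3% in inflorescence, against 35.5%. In leaf the list's 8.16% lay near the 8.94% of those loci. A narrower base is the 101 compact protein-coding loci with a symbol, which include the protein-coding members of this list. Of these 101, 57.4% were detected in silique, 58.4% in inflorescence and 12.9% in leaf, and 31.7% were organ-enriched. The list is itself a large part of these 101 loci, which draws their shares towards its own. The smaller excess against them is thus partly built in, and its size cannot be read from this base. The list's median was 11.5 FPKM in silique, 2.40 in inflorescence and 0 in leaf, against medians of 0 over all compact loci in each organ. Over the 101 loci with a symbol the medians were 2.23, 1.67 and 0 in that order. Of the 49, 35 reached 5 FPKM in some organ and 4 were listed at 0 in every organ.

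Most of the list consists of the LCR genes, for low-molecular-weight cysteine-rich proteins of the defensin-like kind. LCR73 (chromosome 2, 546664 to 547026) was at 1412 FPKM in silique, against 3.19 in leaf and 54.5 in inflorescence. LCR35 (chromosome 2, 9397864 to 9398259) was at 303 FPKM in silique, against 2.06 in inflorescence. LCR30 (chromosome 3, 15402413 to 15402799), at 284 FPKM in silique and 71.3 in inflorescence, fell just short of the 4-fold rule. LCR45 (chromosome 4, 18515213 to 18515602) was at 266 FPKM in silique, against 52.7 in inflorescence. LCR35, LCR30 and LCR45 were also listed at 0 in leaf. Silique was the highest organ for all 4, with the largest ratio to inflorescence at LCR35 and the largest difference in FPKM at LCR73.

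The list also held the opposite pattern. LCR25 (chromosome 4, 14436284 to 14436631) reached 108 FPKM in inflorescence and was listed at 0 in leaf and silique. LCR44 (chromosome 3, 2205392 to 2205706) was at 34.7 FPKM in inflorescence, against 2.09 in silique, and was listed at 0 in leaf. The SCRL genes resemble SCR, the pollen ligand of self-incompatibility in crucifers, and 10 of them were compact loci. Of these, 3 were silique-enriched and 3, with the pseudogene SCRL28, inflorescence-enriched. SCRL14 reached 233 FPKM in silique, against 9.05 in inflorescence, while SCRL23 reached 10.8 FPKM in inflorescence and was listed at 0 in silique. The 1 leaf-enriched member was PDF1.2b (chromosome 2, 11089250 to 11089597), a defensin gene induced by jasmonate and ethylene, at 34.4 FPKM in leaf and listed at 0 in both other organs.

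LCR genes could also be set against members of their own series at loci of other widths. Of 81 LCR genes in the reference table, 36 were compact loci and 42 were named at other loci. Among the compact ones, 16 were silique-enriched and 3 inflorescence-enriched. Among the others, 11 were silique-enriched and 15 inflorescence-enriched. Median levels differed in the same way, at 18.0 FPKM in silique and 3.59 in inflorescence for compact LCR genes, and 4.79 and 15.5 FPKM for the others. None of the 78 was leaf-enriched, but only 0.745% of compact protein-coding loci and 2.18% of all rows were, so this is no result about the series. No test was run on the difference between compact and other LCR genes.

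**Figure D4:**
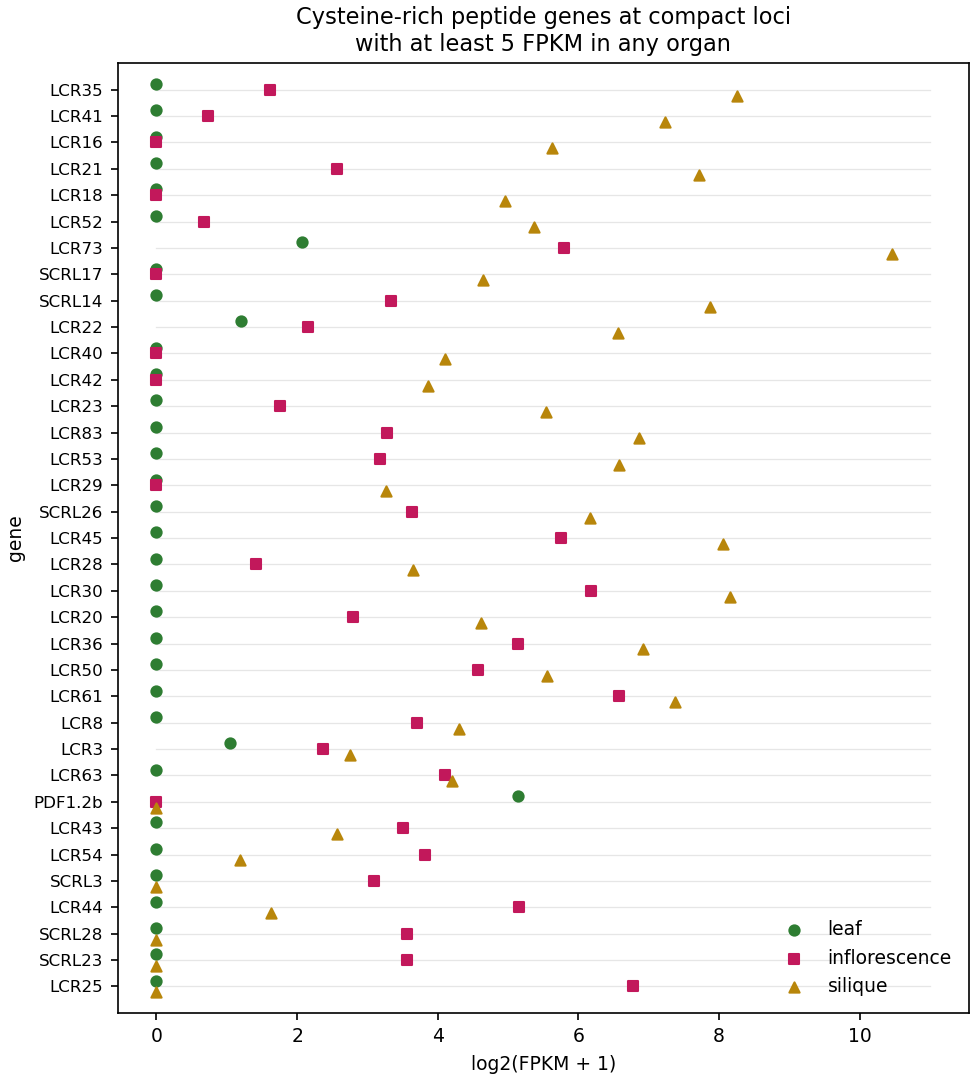
Level in leaf, inflorescence and silique (horizontal axis, log2(FPKM + 1)) of the 35 cysteine-rich peptide genes at compact loci with at least 5 FPKM in some organ (vertical axis), ordered by the difference between silique and inflorescence, with markers set slightly apart within a row. Leaf lies at or near 0 in nearly every row but that of PDF1.2b, and LCR25 at the bottom has inflorescence alone above 0.

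RALF peptides, ligands of receptor kinases that alter the pH of the cell wall, had 13 named compact members, and none of these was detected in leaf. In inflorescence 9 of them (69.2%) were detected, against 35.5% of all compact protein-coding loci. In silique 5 (38.5%) were detected, against 35.8%. Of compact protein-coding loci with a symbol, 58.4% were detected in inflorescence and 57.4% in silique. The silique share of RALF members lay below that base. A large part of the base is the cysteine-rich list, of which 71.4% was detected in silique, so this shortfall is no result about the family. The leaf share of all compact protein-coding loci was itself low, at 8.94%, so the absence of detected members in leaf is no result about the family. RALFL28 (chromosome 4, 6984051 to 6984308) had 49.9 FPKM in inflorescence and 22.6 in silique, with 0 listed in leaf. RALFL5 (chromosome 1, 13049164 to 13049433) had 11.6 FPKM in inflorescence and 4.16 in silique, also with 0 in leaf. RALFL3 and RALFL2 are neighbours on chromosome 1 and went the other way. RALFL3 (8205872 to 8206206) was at 69.6 FPKM in silique, against 0.434 in leaf and 5.88 in inflorescence. RALFL2 (8203962 to 8204255) had 23.9 FPKM in silique and 7.23 in inflorescence. Of the 13, only RALFL29, at 10.9 FPKM in inflorescence against 0.878 in silique, and RALFL3 met the 4-fold rule. Unnamed loci overlapping RALFL15 and RALFL20 were not counted among the 13. Both were inflorescence-enriched, and the one overlapping RALFL15 was at 9.63 FPKM in leaf.

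CLE peptides, which signal through receptor kinases in meristems and seeds, had 5 named compact members. Of these, 2 (40.0%) were detected, against 47.8% of all compact protein-coding loci. An unnamed locus overlapping CLE20, at 10.9 FPKM in inflorescence, was not counted. CLE8 (chromosome 1, 25411312 to 25411696), a gene of early embryo and endosperm development, was at 45.6 FPKM in silique, against 0.252 in leaf and 0.328 in inflorescence. CLE22 (chromosome 5, 3957740 to 3958051) had 5.26 FPKM in inflorescence, against 2.84 in leaf, and was listed at 0 in silique. Both EC1 genes among the compact loci encode small proteins secreted by the egg cell. EC1.3 (chromosome 2, 9283367 to 9283744) had 8.95 FPKM in inflorescence and 8.59 in silique, against 0.544 in leaf. EC1.2 was at 3.92 FPKM in inflorescence, 0.524 in silique and 0 in leaf. LURE peptides, attractants that ovules release to pollen tubes, were taken up after their values were seen. LURE1.1 was at 8.07 FPKM in inflorescence, against 0.841 in silique, and met the 4-fold rule. LURE1.2, LURE1.3 and LURE1.5 had 10.7, 16.8 and 23.8 FPKM in inflorescence and 5.38, 5.99 and 11.9 FPKM in silique, and did not meet it. The pseudogene LURE1.6 was listed at 0 in every organ, and the other LURE loci named here were listed at 0 in leaf.

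The 3 arabinogalactan peptide genes were abundant and each differed in its organ. AGP23 (chromosome 3, 21384204 to 21384572), a pollen gene, had the highest value of any named compact locus in inflorescence, at 1486 FPKM, against 18.1 in leaf and 82.5 in silique. AGP24 (chromosome 5, 16301075 to 16301520) had 288 FPKM in inflorescence and 315 in silique, against 9.14 in leaf. AGP13 (chromosome 4, 13317100 to 13317470) was at 31.6 FPKM in silique, against 0.295 in leaf and 0.731 in inflorescence. One was thus inflorescence-enriched, one shared by flower and fruit, and one silique-enriched.

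The DVL and ROTUNDIFOLIA list, small peptides that limit cell proliferation when overexpressed, had 6 named compact members. None was organ-enriched, against 18.9% of compact protein-coding loci, and 4 (66.7%) were detected, against 47.8%. With so few members, neither count is a result about the family. An unnamed locus overlapping RTFL11 was not counted. RTFL12 (chromosome 4, 7785687 to 7786113) had 108, 104 and 125 FPKM in leaf, inflorescence and silique, the smallest span of any named compact locus with at least 20 FPKM in every organ. RTFL6 (chromosome 4, 16952406 to 16952800) was at 6.59, 4.91 and 3.49 FPKM in the same order. SAUR genes, which respond rapidly to auxin, had 9 named compact members. Of these, 4 (44.4%) were detected, against 47.8% of compact protein-coding loci. None reached 5 FPKM in any organ, against 30.6% of those loci that did.

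The 52 inflorescence-enriched loci were at 5.08 to 1486 FPKM in inflorescence, with a median of 14.2 FPKM, and 7 reached 100 FPKM. Leaf was listed at 0 for 40 of them and silique for 21. Where the 2 other organs differed, silique was above leaf in 28 and leaf above silique in 3. Besides LCR25, AGP23 and LCR44, the largest ratios belonged to genes with a locus code only. AT3G03430 (chromosome 3, 814459 to 814892) was at 217 FPKM in inflorescence, against 1.74 in leaf and 4.25 in silique. AT2G16535 (chromosome 2, 7166107 to 7166440) was at 62.7 FPKM, AT3G07450 (chromosome 3, 2383610 to 2383930) at 27.1 and AT5G37474 (chromosome 5, 14875186 to 14875527) at 20.1, and all 3 were listed at 0 in both other organs. AT4G14315 (chromosome 4, 8240957 to 8241315) was at 25.3 FPKM, against 1.38 in leaf and 0.948 in silique. AT5G37473, the compact locus next to AT5G37474, was listed at 0 outside silique, so this pair had no organ above 0 in common.

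Several of the highest inflorescence values lay at unnamed loci, which were picked after their values were seen. The highest of all compact loci in inflorescence (chromosome 2, 16792317 to 16792531) overlaps several reference genes or part of them. It was not organ-enriched, with 3231 FPKM in inflorescence, against 490 in leaf and 2531 in silique. Another such locus (chromosome 1, 20648465 to 20648891) had 761 FPKM in inflorescence, against 337 in leaf and 863 in silique. Further loci each overlapped a single reference gene without meeting the rule for naming. The locus overlapping RALFL15 (chromosome 2, 9379578 to 9379817) was at 610 FPKM in inflorescence, against 9.63 in leaf and 61.0 in silique. The locus overlapping RALFL20 (chromosome 2, 14691411 to 14691629) reached 216 FPKM in inflorescence and was listed at 0 in both other organs. The locus overlapping AT5G60615 (chromosome 5, 24365953 to 24366319) was at 855 FPKM, against 15.8 in leaf and 75.9 in silique. The pollen markers given above were also highest in inflorescence, and their part in these values was not tested. Of named loci with high values, AT1G68945 (chromosome 1, 25926963 to 25927331) was at 219 FPKM in inflorescence, against 48.3 in leaf and 85.7 in silique, without meeting the 4-fold rule. Its interval also overlaps a small nucleolar RNA gene in the reference table, and the share of reads from each cannot be told apart.

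The 17 leaf-enriched loci were at 5.35 to 4210 FPKM in leaf, with a median of 17.8 FPKM, and only 6 could be named. Beside PDF1.2b, these included AT1G68238 (chromosome 1, 25574461 to 25574835), at 42.0 FPKM in leaf, against 1.26 in inflorescence and 1.14 in silique. AT3G19030 (chromosome 3, 6563979 to 6564424) was at 623 FPKM in leaf, against 29.2 in inflorescence and 125 in silique. The highest compact value of all in leaf was at an unnamed locus overlapping AT1G67865 (chromosome 1, 25446289 to 25446737), at 4210 FPKM, against 289 in inflorescence and 202 in silique. The unnamed locus overlapping AT5G35480 reached 527 FPKM in leaf, against 8.02 in inflorescence and 9.01 in silique. The one overlapping AT1G19960 reached 352 FPKM in leaf, against 1.91 in inflorescence and 10.97 in silique. The few leaf-enriched loci thus spanned a wide range of levels, and the highest of them were unnamed or carried a locus code only.

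Loci that were abundant everywhere were rare. Only 17 of 1443 compact loci had at least 20 FPKM in every organ, against 2921 of 14599 loci of 1000 to 3000 bp. Of the 17, 11 were named and 7 stayed within a factor of 2 between organs. Among the steadiest was OEP7, an outer envelope protein gene of plastids (chromosome 3, 19429735 to 19430063), with 37.2, 36.5 and 30.9 FPKM in leaf, inflorescence and silique. TOM7-2, a subunit gene of the import pore of the outer mitochondrial membrane (chromosome 1, 23833088 to 23833321), was at 37.6, 26.2 and 22.5 FPKM in that order. AT5G65207 (chromosome 5, 26052245 to 26052644) was at 95.9, 78.1 and 87.9 FPKM, and AT5G57080 (chromosome 5, 23098959 to 23099368) at 65.3, 68.2 and 40.4. AT4G37095 (chromosome 4, 17478885 to 17479107) was far more abundant, at 749, 831 and 437 FPKM, and had the highest leaf value among named compact loci.

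The compact loci also hold RNA genes, among them microRNA precursors. Of 84 compact RNA genes, 59 (70.2%) were detected in at least 1 organ, against 47.8% of the 671 protein-coding loci, and 8 (9.52%) were organ-enriched, against 18.9%. All 22 long noncoding RNAs and all 27 loci of the type misc_RNA were detected, but 4 of 21 microRNA genes. No locus of the first or second type was listed at 0 in every organ, against 44.8% of all compact loci. How rows entered the deposited data is not given in the sources used here. If reads were needed for entry, detection was a condition of it, so these detected shares are a description only. MIR839 (chromosome 1, 25278944 to 25279207) was at 23.0 FPKM in inflorescence, against 1.93 in silique, and was listed at 0 in leaf. MIR869 (chromosome 5, 15891579 to 15891873) was at 5.52 FPKM in silique and listed at 0 in leaf and inflorescence. AT5G03285 (chromosome 5, 793514 to 793717), annotated as noncoding, was the highest RNA gene in leaf and in silique, with 214 FPKM in leaf, against 51.2 in inflorescence and 85.5 in silique. AT4G06805 (chromosome 4, 10180286 to 10180554) was at 32.6 FPKM in silique, against 0.716 in leaf and 7.41 in inflorescence. AT3G00610 (chromosome 3, 11983723 to 11983947) was at 20.3 FPKM in silique, against 7.05 in inflorescence, and was listed at 0 in leaf. Of these, MIR839 and MIR869 met the 4-fold rule.

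Besides these microRNA genes, the RNA genes with the largest ratios among those that met the 4-fold rule were low. In inflorescence these were AT4G03325 at 11.1 FPKM, against 0.671 in silique, and AT3G00960 at 7.002 FPKM and listed at 0 in silique, both listed at 0 in leaf. In silique AT1G09885 was at 14.5 FPKM and listed at 0 in both other organs. In leaf AT5G07322 was at 6.61 FPKM, against 0.785 in inflorescence and 0.303 in silique. Few pseudogenes were detected in either width class. Of 216 transcribed compact pseudogenes 13.9% were detected, against 20.7% of those at 1000 to 3000 bp. Of 186 other compact pseudogenes 3.23% were detected, against 2.79%. Among the transcribed compact ones, 6 (2.78%) were silique-enriched. This share was below the 8.59% of all compact loci and above the 0.362% of transcribed pseudogenes at 1000 to 3000 bp. AT1G12670 was at 207 FPKM in silique, against 0.833 in leaf and 48.4 in inflorescence, and AT3G27321 at 76.0 FPKM, listed at 0 in both other organs. AT1G68735 was at 60.6 FPKM in silique, against 1.44 in leaf, and was listed at 0 in inflorescence, and AT2G04033 was at 26.3 FPKM, against 4.69 in inflorescence.

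Neighbouring compact loci were described as runs. Of the 1443, 581 (40.3%) belonged to a run in which each locus lay within 10000 bp of the next compact one. Among silique-enriched loci 72 of 124 (58.1%) were in such runs, among leaf-enriched ones 8 of 17 (47.1%) and among inflorescence-enriched ones 16 of 52 (30.8%). Another locus enriched in the same organ lay in the same run for 42 silique-enriched loci (33.9%) and for none of the others. The leaf and inflorescence sets are smaller, so they offer fewer such chances, and the difference was not tested. Counting each run once, the 124 silique-enriched loci lay at 99 separate places. Chromosomes 1 to 5 held 29, 25, 28, 13 and 29 of them, out of 314, 286, 294, 211 and 338 compact loci. Neighbours that arose by duplication can share reads, and the runs were not checked for likeness of sequence.

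The run with the most organ-enriched loci held 9 genes, from AT3G01322 to AT3G01325 (chromosome 3, 114290 to 123741), and 6 were silique-enriched. AT3G01323 was at 101 FPKM in silique, against 17.6 in inflorescence, and was listed at 0 in leaf. AT3G01325 was at 82.1 FPKM, against 0.296 in leaf and 1.12 in inflorescence. AT3G01327 was at 72.1 FPKM, against 3.49 in inflorescence, and was listed at 0 in leaf. AT3G01331, in the middle of the run, was higher in inflorescence, at 15.6 FPKM against 7.48 in silique. The run was therefore of 1 tendency but not uniform.

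A run of 7 loci on chromosome 4, from LCR23 to LCR25 (14425441 to 14436631), mixed the organs. LCR21 was at 209 FPKM in silique, against 4.91 in inflorescence, and was listed at 0 in leaf. LCR22 was at 93.8 FPKM in silique, against 1.30 in leaf and 3.47 in inflorescence. LCR23 was at 45.4 FPKM, against 2.39 in inflorescence. LCR25 lies at the end of the same run with inflorescence as its only organ above 0, and AT4G29276 was listed at 0 throughout. A run of 5 loci on chromosome 3, from LCR8 to AT3G61185 (22641764 to 22649205), was mixed in the same manner. LCR53 reached 94.2 FPKM in silique, against 8.09 in inflorescence, and LCR52 reached 40.4 FPKM, against 0.602. LCR54 was the reverse, at 13.1 FPKM in inflorescence, against 1.28 in silique. Both runs thus held silique-enriched and inflorescence-enriched LCR genes side by side, with the silique-enriched ones in the majority.

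**Figure D5:**
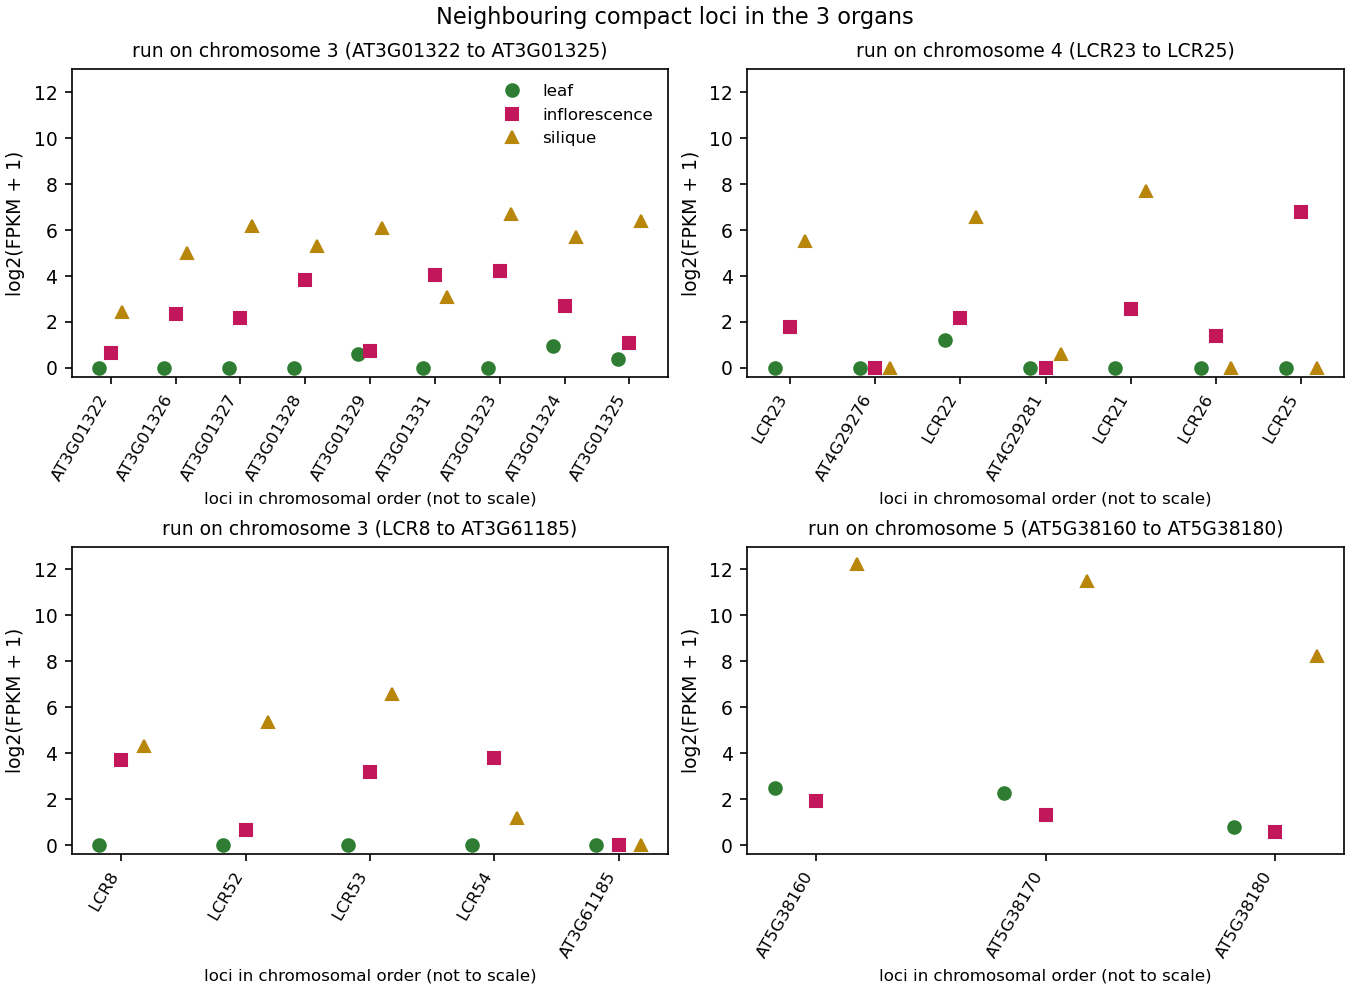
Levels in leaf, inflorescence and silique (vertical axes, log2(FPKM + 1)) of neighbouring compact loci in 4 runs, with loci in chromosomal order along the horizontal axes and markers set slightly apart. Silique is the highest organ for 8 of the 9 loci of the AT3G01322 run and for all 3 loci of the AT5G38160 run, while LCR25 and LCR54 have inflorescence as the highest organ.

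The 2 largest runs held few detected loci. A run of 29 loci on chromosome 5, from AT5G36297 to AT5G36662 (14315808 to 14392975), held 26 protein-coding genes and 3 pseudogenes. Every locus of it was listed at 0 in leaf, 5 were detected, and the highest values were 4.41 FPKM in inflorescence and 0.496 in silique. A run of 20 loci on chromosome 1, from AT1G34792 to AT1G35040 (12766263 to 12812569), had 1 detected locus, at 1.39 FPKM in inflorescence, and was listed at 0 in leaf and silique. Without these 2 runs, a count added after the values were seen, 43.2% of the remaining 1394 compact loci were detected in some organ. All 193 organ-enriched loci remained, so the runs add to the low detection and hold no organ-enriched locus. Detected loci went from 434 to 428 in inflorescence and stayed at 415 in silique and 189 in leaf.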

How the data were processed

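The authors deposited 1 table per organ with an identifier, an interval and an FPKM value, per the file headers. TopHat and the build TAIR10 are named in the submitters' processing notes. Which program computed the FPKM, with which gene models and per which total, and which TopHat release was run, is not given in the sources used here. Depth per library is unknown. Whether the length behind the FPKM was the transcript or an effective length is unknown, and at narrow loci few fragments decide a value.

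Width was taken as end minus start of the interval, and 1 was added to starts for printing. A locus was named when exactly 1 gene of the RefSeq table for assembly TAIR10.1 lay in the locus with at least 50% of its length, filled at least 50% of the locus and met this in no other locus. The table served for names and gene types only. For 823 of 1157 named compact loci the printed start equalled the gene's start.

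Detection, organ enrichment, lists and runs were counted as defined in the text, with a pseudocount of 1 and no statistical test, since each organ had 1 library. Alternatives changed floor, pseudocount, minimum, fold, scaling, width range and the measure. The counting step was tested on simulated data. Members and lists were chosen with earlier results of these data known. Genes named by rule were, per organ, the 8 enriched loci of at least 20 FPKM with the largest ratio, the 5 highest loci and the 3 enriched RNA genes with the largest ratio, the 6 steadiest loci, and up to 4 members per list with at least 5 FPKM and the largest span. Of 21 lists, 11 had no compact member: S1 self-incompatibility homologues, other peptide hormones, lipid transfer and albumin genes, ribosomal proteins, plastid and photosystem proteins, metallothioneins, histones, small transcription regulators, glycine-rich proteins, late embryogenesis genes and hypothetical proteins. Matching used symbols and synonyms of named loci. Genes with a code and no matching synonym could therefore enter only the lists set by gene type, and unnamed loci could enter none. Protein features and promoter motifs, also planned, were not analysed here. Counts used Python 3.11.15 with pandas 2.3.3, NumPy 2.4.6 and SciPy 1.17.1.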

Additional observations from a re-analysis of the deposited data

How the results depend on the processing

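Of 45 alternatives to the 6 counts of compact loci, 23 stayed within the 95% binomial interval of a share or within 1.5 times a count, and 22 did not. Both limits served only as a yardstick for the size of a change. Loci are not replicates, so the interval is not an error of the share. The detected shares in leaf, inflorescence and silique were 20.4%, 45.5% and 40.0% at a floor of 0.1 FPKM, 5.82%, 14.2% and 16.8% at 5 FPKM, and 8.25%, 19.1% and 21.1% at a floor of 1 on FPKM times kilobases. Over loci above 0 in at least 1 organ they were 23.7%, 54.5% and 52.1%, by fewer loci in the denominator. Median-of-ratios scaling and a width of 250 to 400 bp kept all 3 shares within their intervals. Silique-enriched loci numbered 84 to 149 in every alternative but the width of 250 to 400 bp, which kept 894 loci and gave 71. Leaf-enriched loci numbered 8 at a pseudocount of 5, 8 at a minimum of 20 FPKM, 33 at 2-fold, 9 at 8-fold and 10 at the narrower width. Inflorescence-enriched loci numbered 20 at a pseudocount of 5, 21 at a minimum of 20 FPKM, 79 at 2-fold and 31 at 8-fold. At a pseudocount of 5 and at a minimum of 20 FPKM, the inflorescence-enriched share of compact loci was 1.39% and 1.46%, against 1.36% and 1.49% of loci of 1000 to 3000 bp, so the small excess in inflorescence depended on the rule. No paired analysis was possible because each organ has 1 library. The cause of these shifts was not tested beyond the changed denominators. Depth, which is unknown, limits what a value of 0 can show at loci this narrow.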
